A study of Caenorhabditis elegans with 2 samples.

Results

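The regions described here are 278 RCOR-1 peaks that lie between or beside the 5' ends of 2 protein-coding genes transcribed away from each other, of 2344 peaks in the conservative peak list, which was made between both replicates. They were chosen by the authors' peak threshold and by position: an autosomal peak, over 500 bp from any tRNA gene 5' end, whose summit lay within 500 bp of a minus-strand and a plus-strand 5' end, the minus-strand end at the lower coordinate. The data came from ChIP-seq of Caenorhabditis elegans strain RW12222, in which CRISPR insertion added the TY1, EGFP and 3xFLAG tags to rcor-1. The animals were young adults of 65 hours, grown from L1 larvae starved after bleaching, and their sex was not collected. Whole organisms were precipitated with an antibody against GFP in 2 biological replicates. There was 1 group, no untagged or input library was analysed here, and whole animals mix all tissues, so binding in a few cells and weak binding in many cannot be told apart. The files give no read counts, so the depth behind each peak is unknown.

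RCOR-1 is the worm member of the CoREST family, corepressors that in mammals join histone deacetylases to the histone demethylase LSD1 on chromatin. Many C. elegans genes lie head to head with a neighbour on the other strand, so that 1 stretch of DNA holds both promoters. In worms most messages receive a short leader by trans-splicing, so an annotated 5' end often marks the splice site or the start codon and lies downstream of the true start of transcription. The distances below are distances to annotated 5' ends of Ensembl release 115 on WBcel235, the build also called ce11.

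Stretches of DNA at 7 of these peaks are printed here as examples, and they do not all show the same features. They are plus-strand sequence of ce11 read from RefSeq's WBcel235 assembly, the minus-strand gene lying to the left and the plus-strand gene to the right. None of the printed bases is annotated as exon. Capitals mark runs of at least 5 T or A, and the words GCGCGC or TTCGCG or CTGCGTCT on either strand. The rpl-20/Y17G9B.5 region (chrIV:4749970-4750170) surrounds the summit of highest signal and holds A runs on the left and T runs on the right, with a further A run at the right end that goes against this pattern. The drr-2/set-16 region (chrIII:13643638-13643838) holds CTGCGTCT on the minus strand in 2 copies. Its only run, of T, lies left of the summit and also goes against this pattern. The rpl-7A/set-21 sequence (chrIV:4390591-4390843) is the whole interval between both 5' ends. It has T runs right of the summit, and a T run left of it that goes against the pattern. The npp-3/top-2 region (chrII:11874789-11874967) holds all 3 of the searched words in capitals. The wapl-1/htz-1 region (chrIV:4445807-4446007) has 3 overlapping or separate copies of GCGCGC. It has an A run left of the summit, and an A run right of it that goes against the pattern. The coh-4/pid-5 interval (chrV:4175641-4175881) has 3 A runs left of the summit and a T run right of it, and a further T run at its left end that goes against this pattern. The rsp-2/rsp-1 region (chrII:11453103-11453303) holds none of the marked features, although its peak had a signal of 173.
rpl-20/Y17G9B.5: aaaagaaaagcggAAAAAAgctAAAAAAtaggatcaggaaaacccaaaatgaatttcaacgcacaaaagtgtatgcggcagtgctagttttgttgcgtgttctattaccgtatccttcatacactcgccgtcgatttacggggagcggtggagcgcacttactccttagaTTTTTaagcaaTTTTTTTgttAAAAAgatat
drr-2/set-16: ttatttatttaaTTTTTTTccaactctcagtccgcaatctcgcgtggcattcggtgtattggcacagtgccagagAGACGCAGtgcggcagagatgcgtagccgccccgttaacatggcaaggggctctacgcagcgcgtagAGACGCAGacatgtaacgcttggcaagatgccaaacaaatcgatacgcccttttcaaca
rpl-7A/set-21: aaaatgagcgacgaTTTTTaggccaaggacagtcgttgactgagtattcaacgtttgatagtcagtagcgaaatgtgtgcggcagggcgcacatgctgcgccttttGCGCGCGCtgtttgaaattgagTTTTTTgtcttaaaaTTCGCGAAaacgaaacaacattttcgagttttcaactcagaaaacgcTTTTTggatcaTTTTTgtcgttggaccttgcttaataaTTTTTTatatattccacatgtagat
npp-3/top-2: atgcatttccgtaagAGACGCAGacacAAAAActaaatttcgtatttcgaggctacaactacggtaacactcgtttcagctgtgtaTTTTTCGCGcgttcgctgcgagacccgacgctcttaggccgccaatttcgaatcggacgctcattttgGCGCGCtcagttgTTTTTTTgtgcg
wapl-1/htz-1: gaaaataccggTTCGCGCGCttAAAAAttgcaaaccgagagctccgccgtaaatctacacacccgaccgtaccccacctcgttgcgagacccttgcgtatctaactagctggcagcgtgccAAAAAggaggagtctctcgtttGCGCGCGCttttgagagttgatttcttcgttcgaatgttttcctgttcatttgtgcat
coh-4/pid-5: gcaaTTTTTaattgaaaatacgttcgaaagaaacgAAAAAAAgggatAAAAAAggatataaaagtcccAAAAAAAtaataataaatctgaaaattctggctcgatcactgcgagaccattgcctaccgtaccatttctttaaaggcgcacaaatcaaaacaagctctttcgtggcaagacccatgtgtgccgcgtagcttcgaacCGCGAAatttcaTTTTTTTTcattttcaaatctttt
rsp-2/rsp-1: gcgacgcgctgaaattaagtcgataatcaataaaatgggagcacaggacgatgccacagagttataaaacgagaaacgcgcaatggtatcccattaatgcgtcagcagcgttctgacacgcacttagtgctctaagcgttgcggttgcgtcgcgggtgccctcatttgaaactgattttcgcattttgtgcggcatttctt

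How common peaks were in this geometry follows partly from the selection, and the shares are given as background with no test. The authors' ranked list made between replicates held 45103 candidate regions, strong and weak. On the autosomes and away from tRNA genes, 1796 of 36400 candidates were peaks (4.93%). In the divergent geometry 278 of 830 candidates were peaks (33.5%), and next to 5' ends on 1 strand only it was 765 of 10316 (7.42%). These shares are not matched for the place of the summit. Of the one-directional candidates below the threshold, 4220 of 9528 (44.3%) had the summit upstream of the 5' end. Of the divergent ones below it, 363 of 546 (66.5%) had the summit between both ends. The 278 peaks lay in 275 distinct gene pairs with 550 distinct genes, and no gene belonged to more than 1 of these pairs. Counted over genes, 272 of the 1757 autosomal pairs whose nearest divergent 5' ends lay within 1000 bp of each other had a peak (15.5%, 95% Wilson interval 13.9 to 17.2). Such intervals cover counting error only. The other 3 pairs were not each other's nearest divergent pair.

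Chromosomes differed in how many of their divergent pairs carried a peak. Chromosome III had a peak in 63 of 305 pairs (20.7%, interval 16.5 to 25.6) and chromosome I in 64 of 345 (18.6%, interval 14.8 to 23). Chromosome II had 12.6% and chromosome IV 15.6%. Chromosome V had the lowest share, 11.6% (interval 8.93 to 14.9), and its interval did not overlap that of chromosome III. That contrast sets the lowest share against the highest, picked after the values were seen. The interval of chromosome V overlapped those of chromosomes I, II and IV. The gene content of the chromosomes was not adjusted for. When each chromosome was cut into 4 equal parts, the middle 2 parts held 180 of the 278 peaks (64.7%, interval 59.0 to 70.1). The 546 candidates of the same geometry that missed the threshold had the same share there, 64.7%.

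The authors' signal value, in a unit their notes do not define, spanned 8.44 to 655 over the 278 peaks, with a median of 109 and quartiles of 78.4 and 145. One-directional peaks had a median of 88.9 and reached 904. In the replicates' own ranked lists the members' signal ran from 22.7 to 283 in replicate 1 and from 29.2 to 380 in replicate 2. A region of replicate 1 was lacking at 2 members and a region of replicate 2 at 6. Over the 270 members with a value in both, the signals rose together (Spearman's rho 0.76), a description of regions that share both libraries. The same value over 747 one-directional peaks was 0.70.

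Most members were also peaks of a single replicate. The own thresholded list of replicate 1 overlapped 194 members (69.8%) and that of replicate 2 overlapped 187 (67.3%). Both lists overlapped 154 members (55.4%, interval 49.5 to 61.1), and 51 (18.3%) were in neither. For one-directional peaks 338 of 765 (44.2%, interval 40.7 to 47.7) were in both lists. The median member stood at the 98.0 percentile in the list made between replicates. Percentiles here and below are among the autosomal regions of each ranked list, and high ones follow largely from the selection by the threshold. The members' median percentile was 97.6 in replicate 1 and 97.3 in replicate 2.

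**Figure D1:**
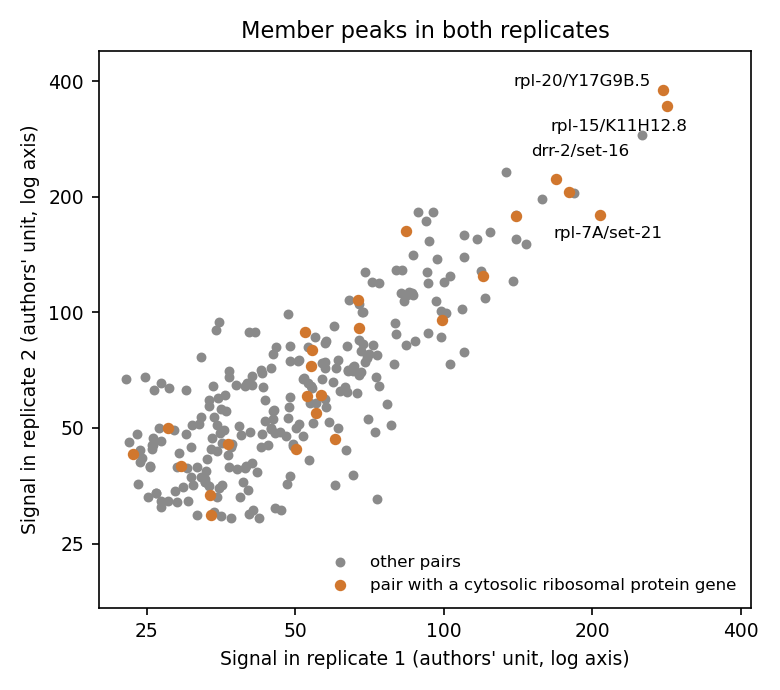
Signal of each member in replicate 1 (horizontal) and replicate 2 (vertical), both on log axes in the authors' unit, for the 270 members with a region in both. Orange points are pairs with a cytosolic ribosomal protein gene, grey points all others; rpl-20/Y17G9B.5, rpl-15/K11H12.8 and drr-2/set-16 stand highest in replicate 2.

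Of the 12 strongest members 6 held a gene for a cytosolic ribosomal protein, against 25 of all 278 members. The peak between rpl-20, which encodes ribosomal protein eL20, and Y17G9B.5, which encodes a homologue of a mitochondrial signalling intermediate of the Toll pathway, had a signal of 655, with 278 in replicate 1 and 380 in replicate 2 (chrIV:4749968-4750177). The peak between rpl-15, encoding ribosomal protein eL15, and K11H12.8 had 621, with 283 and 345 in the replicates (chrIV:654829-655036). These were the highest members in both replicates. The third was drr-2/set-16, at 547, with 252 and 290 (chrIII:13643612-13643851). The set-16 gene encodes a histone methyltransferase of the MLL type, and drr-2 an RNA-binding protein linked to translation. Its summit lay 168 bp upstream of drr-2 and 178 bp upstream of set-16, close to the middle of the interval.

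Below these 3 the signal dropped to 388 at gpap-1/scpr-1, with 184 in replicate 1 and 204 in replicate 2. The peak between rps-19 and hsr-9, a homologue of the DNA damage response protein 53BP1, had 379, with 169 and 223. The peak between rpl-7A and set-21, a gene for a SET domain protein, had 377, with 207 and 179. This was the only one of the 12 with more signal in replicate 1 than in replicate 2. A value of 377 was also found at rpl-12/lin-54, with 179 and 206. The lin-54 gene encodes a DNA-binding subunit of the DREAM complex, which represses cell cycle and germline genes.

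The peak between hsp-90, the gene of a cytosolic chaperone, and C47E8.4 had 364, with 158 and 197 in the replicates. At cct-8, which encodes a subunit of the chaperonin that folds actin and tubulin, the value was 363, with 134 and 232. In proportion its replicate values lay farther apart than those of the other 11. The peak of mcrs-1/atp-1, the latter a subunit of mitochondrial ATP synthase, had 313, with 140 and 179. The ska-3/rps-12 peak had 307, with 140 and 178, and joined a kinetochore gene with a ribosomal one. Another kinetochore gene, czw-1, shared with F20D12.12 a peak of 301, with 147 and 151. All 12 were in the own list of each replicate, and in all of them except mcrs-1/atp-1 and rpl-12/lin-54 the summit lay at least 74 bp upstream of either gene.

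The threshold did not follow the signal alone, since it was set on the irreproducible discovery rate (IDR), a measure of how well the replicates rank a region alike. Just inside it, the region between Y111B2A.1 and Y111B2A.2 had an IDR of 0.00978 and a signal of 53.8. Just outside, elb-1/Y41C4A.11 had an IDR of 0.0105 and a signal of 64.1. The strongest region that missed the threshold was rpt-4/nfyc-1, at 80.2, with 63.3 in replicate 1 and 28.2 in replicate 2 and an IDR of 0.0137. It was followed by lgg-3/rgs-5 at 78.4, with 17.7 and 54.5, and nath-10/dhs-2 at 77.7, with 17.7 and 52.7. All 3 had unequal replicate values. The weakest members were sec-61.A/rps-18 at 9.36, C07H6.9/sap-140 at 8.94 and chk-2/Y60A3A.19 at 8.44. In the joint list they stood low, at percentiles of 9.02, 8.47 and 7.84. In the own lists of replicates 1 and 2, sec-61.A/rps-18 had 33.8 and 29.7, at percentiles of 95.1 and 87.2. C07H6.9/sap-140 had 26.1 and 33.8, at 91.6 and 90.9. The weaker chk-2/Y60A3A.19 peak had no region in replicate 1 and 39.6 in replicate 2, at the 93.6 percentile. C07H6.9/sap-140 and chk-2/Y60A3A.19 are the weaker summits of pairs with 2 peaks. Their values in the own lists may therefore belong to the stronger summit nearby. None of the 546 candidates below the threshold had a signal above the members' median, and 1 exceeded the members' lower quartile.

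At 3 gene pairs there were 2 member peaks, a stronger and a weaker one. Between hda-6, a histone deacetylase gene, and F41H10.4 the signals were 71.9 and 24.4, with summits 199 bp apart. The stronger summit lay 11 bp upstream of hda-6 and the weaker 43 bp upstream of F41H10.4, so each gene had a summit near its own end. At chk-2, which encodes a kinase needed for meiotic chromosome pairing, the signals were 53.9 and 8.44. At C07H6.9/sap-140 they were 65.3 and 8.94, and the weaker summit lay 151 bp downstream of the sap-140 5' end, outside the interval. In the replicates' own lists both summits of a pair took the same value where both had one, 32.8 in replicate 1 and 36.2 in replicate 2 at hda-6, so these values do not tell the 2 summits apart.

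Most summits lay in the shared interval. Of the 278 members 257 (92.4%, interval 88.7 to 95) had the summit between both 5' ends. Of the 546 weaker candidates it was 363 (66.5%, interval 62.4 to 70.3). The other 21 members were split evenly, with 10 summits downstream of the minus-strand 5' end and 11 downstream of the plus-strand one. By annotation 222 member summits (79.9%) were intergenic, 45 (16.2%) lay in an exon and 11 in an intron. Among the weaker candidates 57.3% were intergenic and 31.1% exonic. At one-directional peaks 625 of 765 summits (81.7%) lay upstream of the 5' end, at a median of 167 bp.

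**Figure D2:**
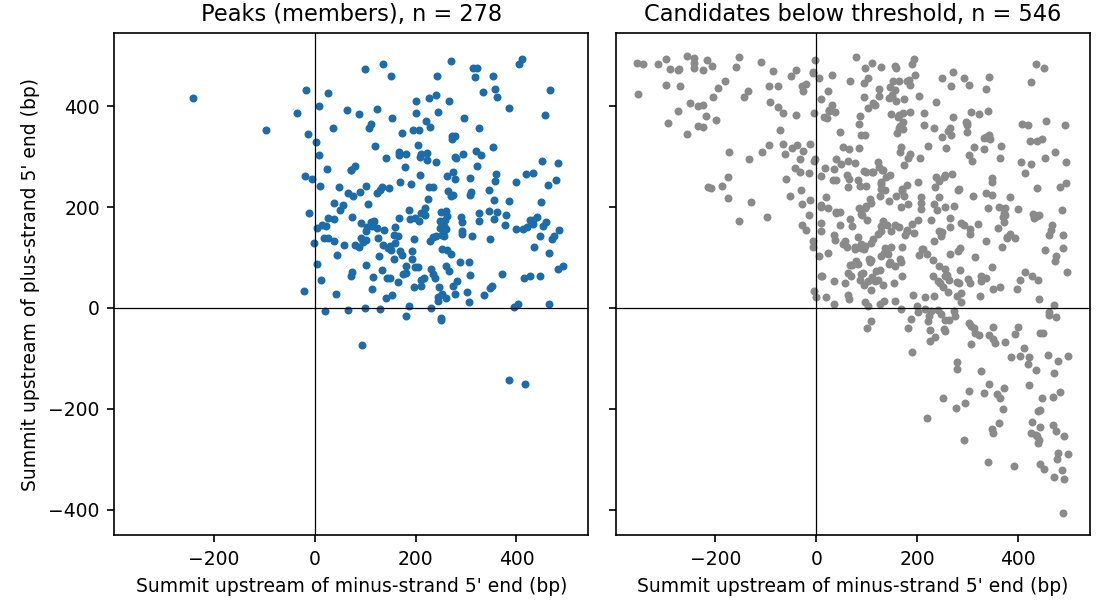
Distance in bp by which the summit lies upstream of the minus-strand 5' end (horizontal) and of the plus-strand 5' end (vertical), for the 278 members (left) and the 546 candidates below the threshold (right); a negative value lies inside the gene side. The upper right quadrant, between both ends, holds 257 members and 363 weaker candidates.

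The members' 5' ends lay a median of 396.5 bp apart, with quartiles of 269.2 and 555 and a range of 12 to 905 bp. The weaker candidates had a median of 326 bp. The summit lay a median of 127.5 bp from the nearer 5' end, against 121.5 bp for the weaker candidates, so the distance to the nearer gene was much alike in both sets. It lay a median of 221.5 bp upstream of the minus-strand gene and 174 bp upstream of the plus-strand gene. The summit was closer to the plus-strand gene at 157 members and to the minus-strand gene at 120.

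The share of pairs with a peak differed with the spacing of their 5' ends. With up to 200 bp between the 5' ends, 30 of 269 pairs had a peak (11.2%, interval 7.92 to 15.5). With over 200 and up to 400 bp it was 111 of 476 (23.3%, interval 19.7 to 27.3), and with over 400 and up to 600 bp it was 86 of 397 (21.7%, interval 17.9 to 26.0). The share fell to 45 of 615 pairs (7.32%) above 600 bp, where the rule leaves only a narrow stretch within 500 bp of both ends. Over candidate regions, which all met the rule, 19.1% were peaks in the narrowest class, 33.8% in the next, 39.3% in the third and 40.0% (interval 31.7 to 48.9) in the widest. The lower share of narrow pairs thus held on both counts, and that of wide pairs only when counted over genes. In the narrowest class 34.1% of the weaker candidates had the summit between both 5' ends, against 58.7%, 91.0% and 100% in the wider ones. The shares over candidates do not separate summits inside and outside the interval. Counting only summits between both ends, the narrowest class held 19 members and 42 weaker candidates. The wider classes held 103 and 128, 87 and 121, and 48 and 72. On these counts the narrowest class was still lowest, but the gap was smaller.

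**Figure D3:**
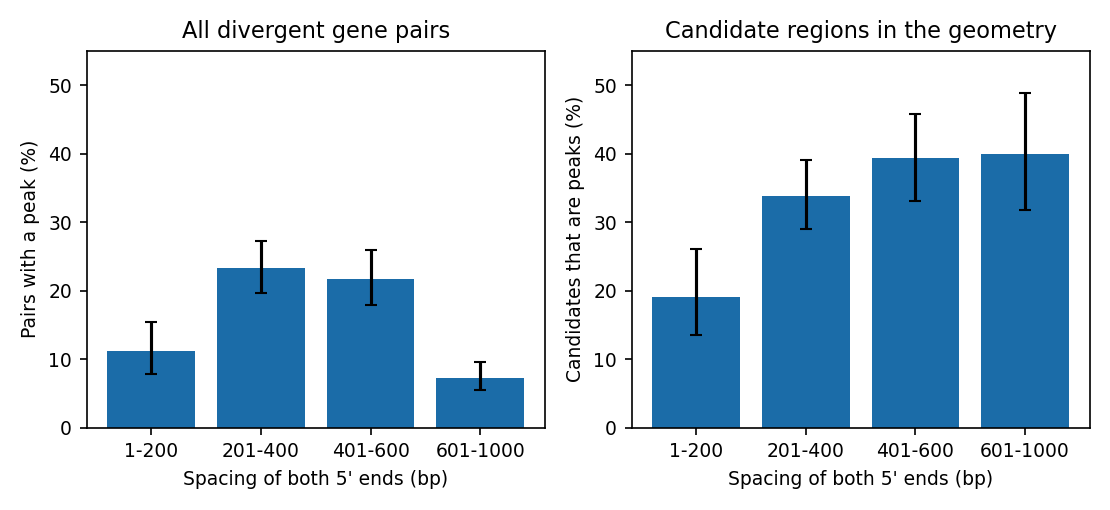
Share in percent of all divergent gene pairs that had a member peak (left) and of candidate regions in the geometry that were peaks (right), by the spacing of both 5' ends in bp, with 95% Wilson intervals as bars. The narrowest class is lowest on the right at 19.1%, and the widest class is highest there at 40.0% and lowest on the left at 7.32%.

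The place of the summit within the interval differed with the spacing. When each interval was cut into 3 equal parts, the middle part held the summit at 47 of 103 members with a spacing of over 200 and up to 400 bp (45.6%, interval 36.3 to 55.2), against 43.0% of the weaker candidates. With up to 200 bp the order was the other way, with 5 of 19 members (26.3%, interval 11.8 to 48.8) against 45.2% (interval 31.2 to 60.1). With over 400 and up to 600 bp it was 54 of 87 members (62.1%, interval 51.6 to 71.5), against 39.7% (interval 31.4 to 48.6) of the weaker candidates. Above 600 bp it was 75% against 68.1%, and there the window keeps any summit from lying close to 1 end. The members' median distance to the nearer end rose from 26 to 88, 177 and 269 bp over the 4 classes, and that to the farther end from 125 to 209, 312 and 434 bp. Such a rise is built into the geometry, since wider intervals leave more room. In the weaker candidates the nearer distance rose likewise, from 47.5 to 89, 158 and 278.5 bp. Their farther distance rose from 103.5 to 220, 363 and 439 bp.

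The extremes of spacing show the range of this geometry. F32D8.14 and F32D8.5 had 5' ends 12 bp apart, and their peak had a signal of 88.0, with 37.3 and 45.3 in the replicates. F25H9.6 and F25H9.7 lay 15 bp apart, with a signal of 121 and values of 70.4 and 52.9. In these pairs the summit lay within 33 bp of either end. The widest pairs were sqv-3/vha-1, at 900 bp and a signal of 130, and pgam-5/npp-21, at 905 bp and 66.6.

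The base composition turned over at the summit, in mirror image toward the 2 genes. On the plus strand, averaged over 21 bp, A made up 41.5% of the members' bases 100 bp to the left of the summit, on the minus-strand gene's side, and T 27.3%. At the same distance to the right T made up 42.2% and A 28.3%. Read toward either gene, the strand of that gene was thus rich in T. At the summit the 4 bases were nearly even, with 26.2% G, 24.8% C, 24.8% T and 24.3% A. The weaker candidates had the same shape but lower, with 35.9% A to the left, 36.1% T to the right, and 21% G and 21.2% C at the summit. They include more summits that are not between both 5' ends.

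**Figure D4:**
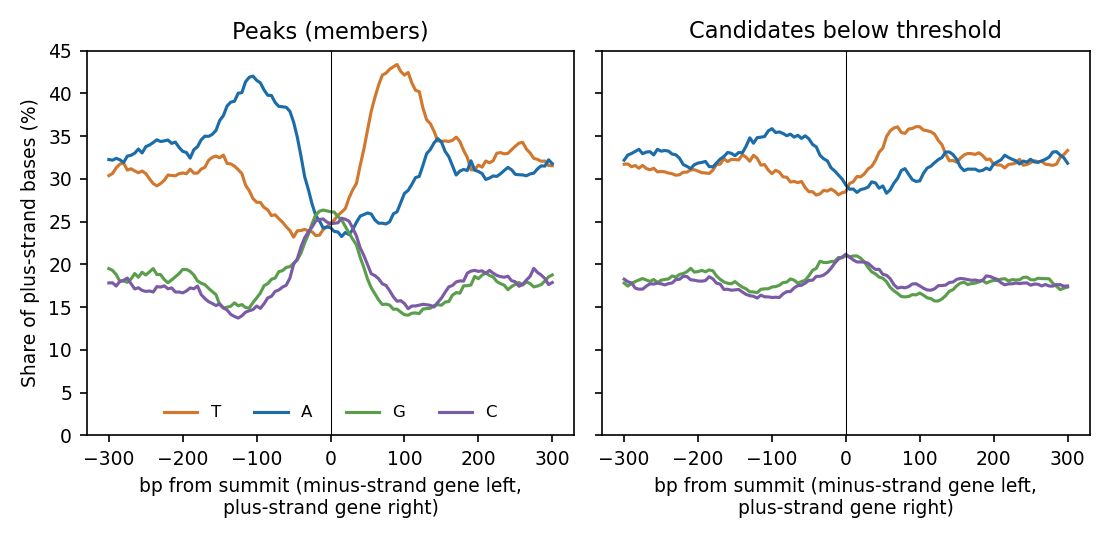
Share in percent of each base on the plus strand, averaged over 21 bp, by the distance in bp from the summit, for members (left) and candidates below the threshold (right); the minus-strand gene lies to the left. Among members A reaches about the height at 100 bp on the left (41.5%) that T reaches on the right (42.2%), while G and C peak at the summit.

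Runs of 1 base were part of this pattern, such as those in capitals in the coh-4/pid-5 sequence above. Within 150 bp of the summit on the plus-strand gene's side, the 278 members held 578 runs of at least 5 T and 206 runs of A, read outward. On the minus-strand gene's side, read outward along that gene's strand, they held 550 runs of T and 189 of A. T runs outnumbered A runs at 178 members (64.0%, interval 58.2 to 69.4) on the 1 side and at 183 (65.8%, interval 60.1 to 71.2) on the other. The same counts in weaker candidates were 782 to 492 and 783 to 503, ratios of 1.59 and 1.56 against 2.81 and 2.91 in members. Fewer of the weaker candidates had the summit between both 5' ends, which these ratios do not separate.

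One-directional peaks had this excess on 1 side only. Toward their gene they held 1353 T runs and 467 A runs, a ratio of 2.90. On the far side, where no 5' end of the other strand lay in the window, they held 805 and 730, a ratio of 1.10. T runs were in excess on the far side at 258 of 765 peaks (33.7%, interval 30.5 to 37.1), below the interval on either side of the members. One-directional candidates below the threshold had 9015 to 6898 toward the gene, a ratio of 1.31, and 0.83 on the far side. Only 44.3% of them had the summit upstream of the 5' end, against 81.7% of one-directional peaks, which these ratios do not separate. At divergent pairs the runs of T thus stood on both sides of the summit, each on the strand of the gene it faced. Over the whole stretch between summit and 5' ends, 208 of the 257 members with a summit between both ends had more T runs than A runs read toward the genes (80.9%, interval 75.7 to 85.3), against 70.2% (interval 65.4 to 74.7) of the weaker candidates. The ratio of T runs to A runs there was 2.62 in members and 1.94 in such candidates, closer together than over all summits.

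Around the summit the members were richer in G and C than weaker candidates of the same geometry. Within 100 bp of it GC was 40.7% ± 5.99 (SD, n = 278), against 37.3% ± 6.0 (n = 546). The weaker set also had more summits in exons or outside the interval, which was not adjusted for. One-directional peaks had 41.6% ± 7.15 and all autosomal candidates 40.4%, so the level itself was close to that of other regions. The CpG dinucleotide occurred 1.45 times as often as the base content gives in members, 1.27 times in weaker candidates, 1.31 times at one-directional peaks and 1.01 times in all autosomal candidates. Worms lack the CpG methylation that depletes this dinucleotide in vertebrates.

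Of the 10 short words searched within 100 bp of the summit on both strands, 3 had intervals in members that lay above the share of the weaker candidates, and these were picked out after their values were seen. GCGCGC was in 52 members (18.7%, interval 14.6 to 23.7), in 6.59% of the weaker candidates, in 16.7% of one-directional peaks and in 3.05% of all autosomal candidates. TTCGCG was in 61 members (21.9%, interval 17.5 to 27.2), against 9.52%, 19.6% and 6.51%. CTGCGTCT was in 9.71% (interval 6.76 to 13.8), against 3.48%, 10.6% and 3.05%. GCGCGC and TTCGCG can share bases, and 19 members held both words and 94 at least 1 of them. Members with either had a median signal of 112 and those with neither 102. One-directional peaks had like shares of these 3 words.

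Other words were less frequent in members or much alike. TATAAA, the core of the TATA box, was in 12.6% of members (interval 9.19 to 17) and in 22.9% of weaker candidates. TTTCAG, the consensus of worm splice acceptors that also serves trans-splicing, was in 26.6% (interval 21.8 to 32.1) against 37.4%. More summits of the weaker candidates lay in exons or outside the interval, which these shares do not separate. TTTTTT was in 69.4% of members, 64.3% of weaker candidates and 52.7% of one-directional peaks. GAGAGA was in 21.9% of members against 18.1% of weaker candidates, CCAAT in 28.8% against 29.7%, CACGTG in 3.6% against 4.21% and TTTGAA in 44.2% against 46.3%. A match is only a match of letters in this window.

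Pairs holding a gene of any of 24 lists, matched by symbol, had a peak more often than pairs with no listed gene. Pairs with no listed gene had a peak in 120 of 1146 cases (10.5%), pairs with 1 listed gene in 120 of 467 (25.7%) and pairs with 2 in 32 of 144 (22.2%). The lists were chosen with earlier results of these data known and get no test, and each share is read against the 15.5% of all pairs.

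Cytosolic ribosomal protein genes stood highest, with a peak at 25 of 45 pairs (55.6%, interval 41.2 to 69.1) and a median signal of 135 against 109 for all members. They held 28 of the 80 autosomal genes of the list. Their signals ran from 655 at rpl-20 to 9.36 at rps-18, the latter with 33.8 and 29.7 in the replicates' own lists. At rps-9/lsm-1 the signal was 62.9, with 33.6 and 33.4 in the replicates, and it was in neither own list. Where 1 gene of the pair was ribosomal, the summit lay a median of 284.5 bp upstream of it and 185.5 bp upstream of its partner. It was closer to the ribosomal gene at 8 of 22 such members. At 3 pairs both genes were ribosomal. Of these rps-10/rpl-24.1 had 141, with 52.4 and 88.9 in the replicates. The peak of rpl-39/rps-30 had 119, with 56.3 and 61, and that of rps-14/rpl-36 had 75.1, with 27.7 and 50.1.

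**Figure D5:**
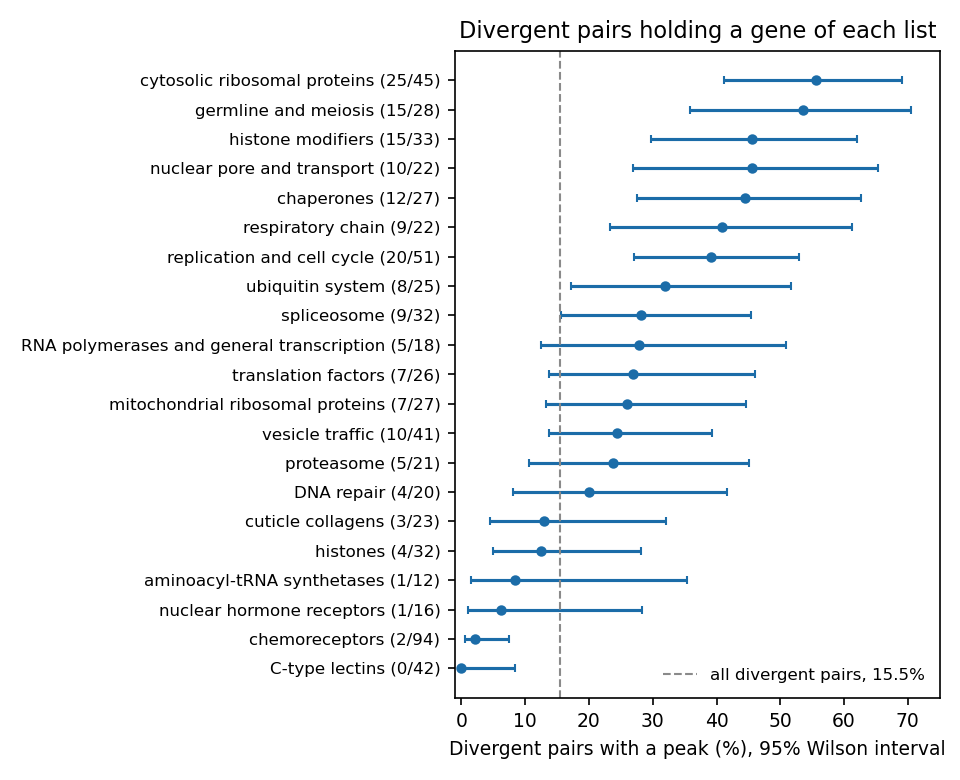
Share in percent of divergent pairs holding a gene of each list that had a member peak, with 95% Wilson intervals as bars and the counts beside the names, for lists with at least 10 pairs. The dashed line is the share over all divergent pairs, 15.5%; cytosolic ribosomal proteins lie highest at 55.6% and C-type lectins at 0.

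Germline and meiosis genes came next, with a peak at 15 of 28 pairs (53.6%, interval 35.8 to 70.5) and a median signal of 93.8. The pos-1 gene, for an RNA-binding protein that patterns the early embryo, shared a peak with vha-18 whose replicate values were 86.3 and 112. The syp-4 gene, for a protein of the synaptonemal complex, had 172, with 80.2 and 88.0. The meiotic cohesin gene coh-4 and pid-5, a gene of the piRNA pathway, shared a peak of 137, with 63.9 and 70.2. Its relative coh-3 had 128, with 59.7 and 65.8, and rec-8, a further meiotic cohesin gene, had 70.7 with mex-5, with 42.3 and 29.2. The genes mei-2, for a subunit of the meiotic katanin, and syp-6 were both in the list and shared a peak of 132, with 74.0 and 64.3.

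Genes for histone modifiers and chromatin proteins had a peak at 15 of 33 pairs (45.5%, interval 29.8 to 62), with a median signal of 141. Besides set-16, set-21 and lin-54 the list held lin-53, for a histone-binding protein of several chromatin complexes, which shared with nra-2 a peak of 295, with 140 and 155. The histone acetyltransferase complex gene epc-1 had 171, with 79.8 and 93.9. The deacetylase gene hda-11 had 165, with 83.7 and 82.2. The lin-35 gene, the worm retinoblastoma homologue, shared with vps-51 a peak of 139, with 63.7 and 81.6. At trr-1 the signal was 73.3, with 40.2 and 34.5, and the peak was in the own list of replicate 1 but not of replicate 2.

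Nuclear pore and transport genes had a peak at 10 of 22 pairs (45.5%, interval 26.9 to 65.3). The strongest joined npp-3, a nucleoporin gene, with top-2, for topoisomerase II, at 270, with 110 and 159. The npp-6 gene shared with spd-5, for a centrosome scaffold protein, a peak of 197, with 69.2 and 127. Its summit lay 417 bp upstream of npp-6 and 242 bp within the side of spd-5. Over the 10 members of this list the summit lay a median of 315 bp upstream of the transport gene and 121 bp upstream of its partner, and it was closer to the transport gene at 2.

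Chaperone genes had a peak at 12 of 27 pairs (44.4%, interval 27.6 to 62.7), and respiratory chain genes at 9 of 22 (40.9%, interval 23.3 to 61.3). The chaperone members had a median signal of 170 and included the chaperonin genes cct-1, at 203, cct-5, at 137, and cct-7, at 125, beside cct-8. Their summit also lay farther from the listed gene, a median of 316.5 bp against 195 bp from the partner. Respiratory chain members had a median of 96.4 and no such difference, with 199 against 187 bp. Other lists went both ways. The medians were 223 bp from the listed gene against 86 bp from the partner for the spliceosome. The order was reversed for germline and meiosis, with 182.5 against 317 bp, and for the proteasome, with 182 against 275 bp.

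Replication and cell cycle genes had a peak at 20 of 51 pairs (39.2%, interval 27 to 52.9). The kinetochore gene knl-3 had 272, with 88.6 and 183 in the replicates. The tim-1 gene, a homologue of timeless, had 237, with 96.9 and 138. At eef-1A.1/rfc-4, the genes of a translation elongation factor and of a subunit of the replication clamp loader, the signal was 198, with 86.6 and 111. Others were cdc-6 at 125, orc-1 at 95.3 and mcm-3 at 88.8, which act in the licensing of replication origins. The cdk-1 gene shared with iff-1 a peak of 68.2, with 34.7 and 33.1, which was in neither own list.

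Further lists lay nearer to the share of all pairs, and their intervals held or nearly held 15.5%. The ubiquitin system had 8 of 25 pairs (32.0%), the spliceosome 9 of 32 (28.1%), RNA polymerases and general transcription 5 of 18 (27.8%) and translation factors 7 of 26 (26.9%). Mitochondrial ribosomal proteins had 7 of 27 (25.9%, interval 13.2 to 44.7), a lower share than that of the cytosolic ones, with intervals that overlapped. Vesicle traffic had 10 of 41 (24.4%), the proteasome 5 of 21 (23.8%) and DNA repair 4 of 20. Some of these members were strong. The peak between sec-61.B, a gene of the protein translocon, and trap-3 had 284, with 95.1 and 183 in the replicates. The elongation factor gene eef-2 shared with clsp-1 a peak of 259, with 92.2 and 173, and eef-1G shared one of 249 with ctf-4, with 119 and 128. The proteasome subunit gene rpn-3 shared with the chaperone gene hsp-110 a peak of 244, with 93.5 and 153. The ubiquitin-conjugating enzyme gene ubc-6 had 232, with 103 and 124. All 5 were in the own list of each replicate. The spliceosome list had 3 pairs in which both genes belonged to it. The pair rsp-2/rsp-1, both genes of SR splicing factors, had 173, with 87.4 and 84.4. The pair snr-3/rsp-5 had 94.1, with 36.8 and 67.8, and snu-13/rsp-7 had 52.1, with 25.2 and 33. Mitochondrial import and homeobox genes had 1 peak each among 4 and 5 pairs.

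Chemoreceptor and C-type lectin genes had intervals below the share of all pairs. Chemoreceptor genes had a peak at 2 of 94 pairs (2.13%, interval 0.585 to 7.43). One of them was rsr-1/sri-5, at 192, with 71.4 and 120 in the replicates, whose gene rsr-1 encodes a splicing coactivator. C-type lectin genes had a peak at 0 of 42 pairs, with an upper bound of 8.38%, and neuropeptide and insulin genes at 0 of 9, with an upper bound of 29.9%. Nuclear hormone receptors had 1 of 16 (6.25%, interval 1.11 to 28.3), nhr-47, whose partner was the chaperone gene dnj-19. Aminoacyl-tRNA synthetases had 1 of 12 (8.33%, interval 1.49 to 35.4). The intervals of these last 3 lists held the 15.5% of all pairs.

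Cuticle collagen genes had a peak at 3 of 23 pairs (13.0%) and histone genes at 4 of 32 (12.5%). The collagen gene col-38 shared a peak of 113 with rpl-5, and col-2 one of 60.8 with ndc-80, a kinetochore gene. At his-67/his-68 the signal was 220, with 86.8 and 141. At his-63/his-64 it was 74.5, with 48.1 and 35.8, and at his-60/his-59 it was 19.5, with 25.6 and 45.1. Histone genes have nearly identical copies, and no source used here tells how reads matching several copies were placed, so these 3 values are uncertain. The variant histone gene htz-1, for H2A.Z, shared with wapl-1 a peak of 211, with 92.9 and 119.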

How the data were processed

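ChIP-seq of RCOR-1::EGFP was done in 2 biological replicates of whole young adults, per the labels. The deposited peak and ranked lists are on ce11, per the deposited notes. An aligner, a peak caller and the use of a control, not given in the sources used here, cannot be stated. The signal of each region, in a unit not defined, and the −log10 of its IDR were deposited by the authors. Every region of the thresholded lists had an IDR of 0.01 or less. The ranked list made between replicates was recognised by its regions, 61.9% of whose parts occur in the replicates' lists, against 0.00218% for the other ranked list.

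From these, summits were joined to the 5' ends of all protein-coding transcripts of Ensembl release 115, and the pair with the smallest summed distance was kept. Replicate signals are the highest of the region holding the summit in each replicate's own ranked list, since the joint list has no column headers to tie its columns to replicates. Candidates below the threshold overlapped no peak, and 6 that did were left out. RefSeq named the products of 550 of 550 genes and gave the sequences. Python 3.11.15, numpy 2.4.6 and pandas 2.3.3 were used.

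There is 1 group and the members were selected on signal, so no test was made; counts, medians and 95% Wilson intervals are given. The members, the 24 lists and the 10 words were chosen with earlier results of these data known, the runs and base profile were added after seeing the data, and a few symbols that matched the wrong list were removed or moved by gene identity. The rule for naming took the 12 strongest members, up to 3 strongest per list, pairs with both genes in 1 list, the 2 narrowest and 2 widest, and the 3 weakest, with the 3 strongest below the threshold. It gave 74 members, of which those that carry the description of a list are printed and the others are counted in its share. The further genes named within the lists, the members nearest the IDR threshold and the pairs with 2 peaks were chosen after their values were seen. Alternatives were other windows (300 and 700 bp), 5' ends, lists, tRNA distances and overlaps. The sorting of regions by position was tested on simulated data, where 400 of 400 regions were recovered.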

Additional observations from a re-analysis of the deposited data

How the results depend on the processing

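Each of 8 summary results was recomputed under its alternatives, and 40 of 64 values stayed close to the reported one. A count had to stay within 1.5 times and a share within the 95% Wilson interval of the reported share. A median or mean had to stay within the spread between replicates. With a window of 300 bp there were 159 members in 158 pairs, a spacing of 288 bp, a distance to the nearer end of 95 bp, 39% of candidates as peaks and a GC of 39.9%. With 700 bp the spacing was 459 bp, the nearer distance 148.5 bp and the share of candidates 25.6%, since a wider window admits wider pairs. Among peaks above the median signal there were 176 members in 176 pairs, 21.2% of candidates, a GC of 42.1% and 85.2% in both own lists. The other thresholded list gave a spacing of 408 bp and a nearer distance of 135.5 bp, and the outermost 5' ends a nearer distance of 129 bp. Within 50 bp of the summit GC was 47.5%. With the own list of 1 replicate, leaving out the other, there were 194 to 207 members in 192 to 207 pairs, a spacing of 379 to 390 bp, a nearer distance of 125.5 to 126 bp, 28.0 to 30.4% of candidates and a GC of 41.4 to 41.9%. The share of summits between both 5' ends was 92.3 to 93.8% there, close to 92.4%. Of 74 named members 68 stood at or above the 90th percentile in all 3 ranked lists. The rule for naming favoured strong members, and all had passed the threshold. That share therefore follows largely from the selection and is no measure of stability. No paired analysis was possible because there is 1 group of samples. The depth is unknown, no background library was used, and annotated 5' ends need not be starts of transcription.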

Other observations

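Noncoding genes with a 5' end within 500 bp of the summit were counted beside the coding pairs. An ncRNA gene lay there at 35 of the 278 members (12.6%), at 9.80% of one-directional peaks and at 6.59% of the weaker candidates of the divergent geometry. A piRNA gene lay there at 7 members, a snoRNA gene at 6, and miRNA and snRNA genes at 3 members each. At one-directional peaks snoRNA genes were near 31 of 765 (4.05%), against 2.16% of members.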
